A study of Mus musculus with 4 samples.

Results

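The genes described here encode nuclear subunits of respiratory complexes II, III and V, nuclear subunits of complex IV that are not tissue isoforms, and cytochrome c. They were taken by a list of names and number 35 of the 53647 genes in the count tables: 4 of complex II, 9 of complex III, the cytochrome c gene Cycs, 6 of complex IV and 15 of complex V. All 35 were found in the tables and all 35 passed the filter on low counts. Bulk RNA sequencing compared primary myotubes of wild-type mice with and without recombinant EDA-A2, the ligand of the ectodysplasin A2 receptor, to find the transcriptional changes that follow activation of this receptor. Myoblasts came from limb muscles of pups, were differentiated in 5% horse serum, and myotubes received EDA-A2 at 250 ng/ml for 24 h before harvest at 72 h of differentiation. There were 2 control and 2 EDA-A2 libraries, and the labels do not say whether the 2 libraries of a group came from separate cultures or animals, so the p-values measure only the spread between these libraries.

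Complex II passes electrons from succinate to ubiquinone, complex III passes them from ubiquinol to cytochrome c, and complex IV passes them from cytochrome c to oxygen. Complexes III and IV pump protons across the inner mitochondrial membrane, and complex V (ATP synthase) uses the returning protons to make ATP. Complexes III, IV and V are built from nuclear subunits, imported from the cytosol, together with a few subunits made inside the organelle from mitochondrial DNA, whereas all subunits of complex II are nuclear. Contracting muscle depends on this pathway for sustained work, and differentiating myotubes carry it at high levels.

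Counts on genes summed to between 29444155 and 29746863 per library. The cultures held the transcripts of fused muscle cells in every library. Of 8 myotube markers, 3 fell after EDA-A2 (Myh3, Acta1 and Tnni1), none rose, and the summed normalised counts of the 8 ranged from 624413 to 663059 in control and from 472137 to 479614 in EDA-A2 libraries. Dividing-cell markers (6 genes) were present at similar sums, 21555 to 25582 in control and 23459 to 23903 in EDA-A2 libraries. Of 7 fibroblast markers 5 were tested, with sums of 49614 to 51560 in control and 47320 to 48012 in EDA-A2 libraries. These 5 went different ways, 3 lower and 2 higher, with log2 fold changes from -0.46 to 0.48. Among 5 myoblast markers, Vcam1 rose and Cdh15 fell. Only 2 of 6 macrophage and 2 of 5 endothelial markers passed the filter, with sums of at most 109 and 169 normalised counts per library, and the macrophage marker Ptprc and the endothelial marker Pecam1 did not. In RNA pooled from whole cultures, fewer cells of a type and less RNA per cell cannot be told apart.

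All 35 subunit genes had a lower fitted level after EDA-A2. Their log2 fold changes ran from -0.32 to -0.06 with a median of -0.18, where the median of all 15173 genes tested was -0.002. In edgeR's quasi-likelihood test, with p-values adjusted after Benjamini and Hochberg over all genes, 3 of the 35 (8.57%) fell, Uqcr10, Atp5me and Cycs, and none rose. Over all genes tested 2.13% fell and 2.45% rose. An unadjusted p under 0.05 with a lower level was found for 23 of the 35 (65.7%) and for 8.03% of all genes. Both EDA-A2 libraries lay below both control libraries for 32 of the 35 (91.4%), against 22.2% of all genes, and the 3 exceptions were Sdhc, Uqcrfs1 and Atp5f1a. Standard errors had a median of 0.07 for the 35 genes and of 0.10 for all genes. A design of 2 libraries against 2 cannot give an exact permutation p below 0.333 for a single gene.

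**Figure D1:**
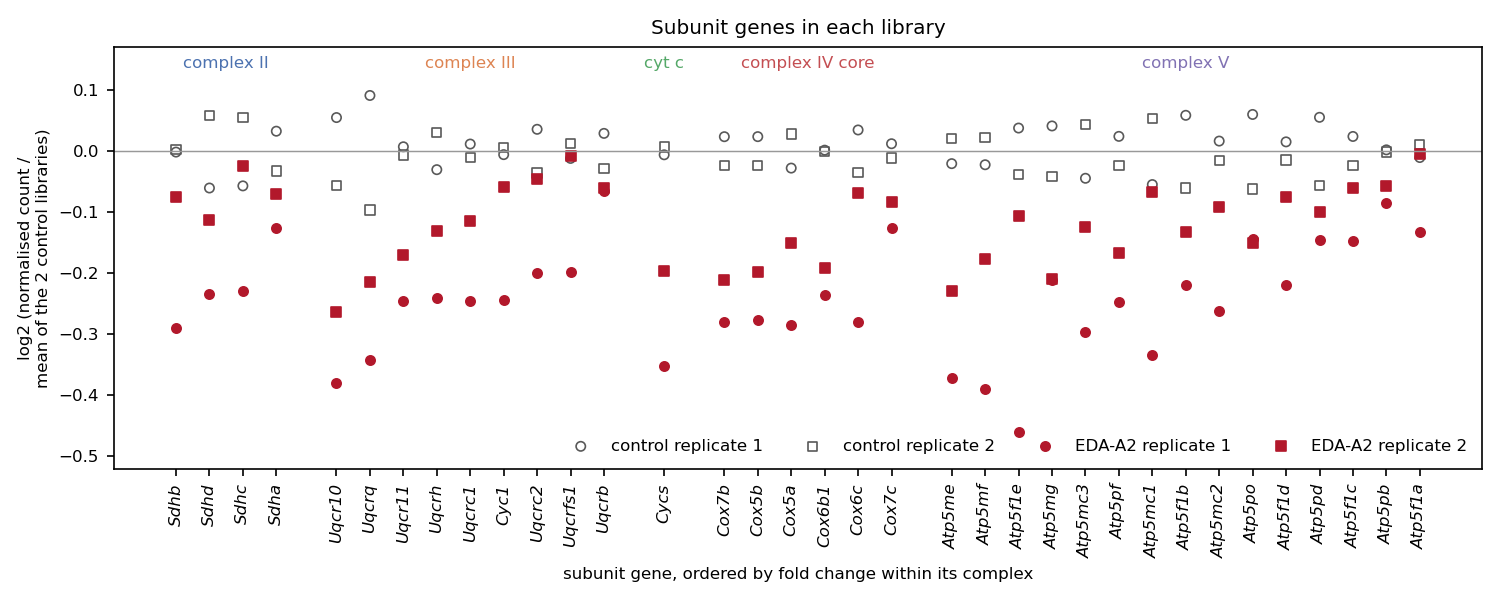
Each column is 1 subunit gene, grouped by complex, and the vertical axis gives the log2 ratio of its normalised count in each library to the mean of the 2 control libraries (open symbols, control; filled symbols, EDA-A2; circles, replicate 1; squares, replicate 2). The filled symbols lie below both open symbols in 32 of 35 columns, and EDA-A2 replicate 1 lies below EDA-A2 replicate 2 in 34.

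The 35 genes together took 0.884% and 0.883% of the counts in control replicates 1 and 2, and 0.797% and 0.850% in EDA-A2 replicates 1 and 2. The EDA-A2 libraries were not alike in this. Replicate 1 had the lower level for 34 of the 35 genes, with a median of -0.24 relative to the control mean on the log2 scale, where replicate 2 had -0.11. Control replicate 1 was the lower control library for 13 of the 35. EDA-A2 replicate 1 also had the highest share of read pairs outside annotated genes, 7.40% against 6.68% to 6.84% in the other libraries, and the part of this in the result was not tested. Without EDA-A2 replicate 1 the median of the 35 genes was -0.11 and none was called (4 with an unadjusted p under 0.05), and without EDA-A2 replicate 2 it was -0.25 and 3 were called. Without control replicate 1 or control replicate 2 the test called no gene of the whole table, and 12 and 13 of the 35 genes had an unadjusted p under 0.05. All 35 fold changes stayed negative in each of these fits. The 3 calls were also lost when libraries were scaled by total counts or when the low-count filter was dropped (0 called in both). The summed counts of the myotube markers given above were also lower after EDA-A2. EDA-A2 replicate 1 was the lower EDA-A2 library for 4 of these 8 markers. The part of the marker fall in the result was not tested.

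**Figure D2:**
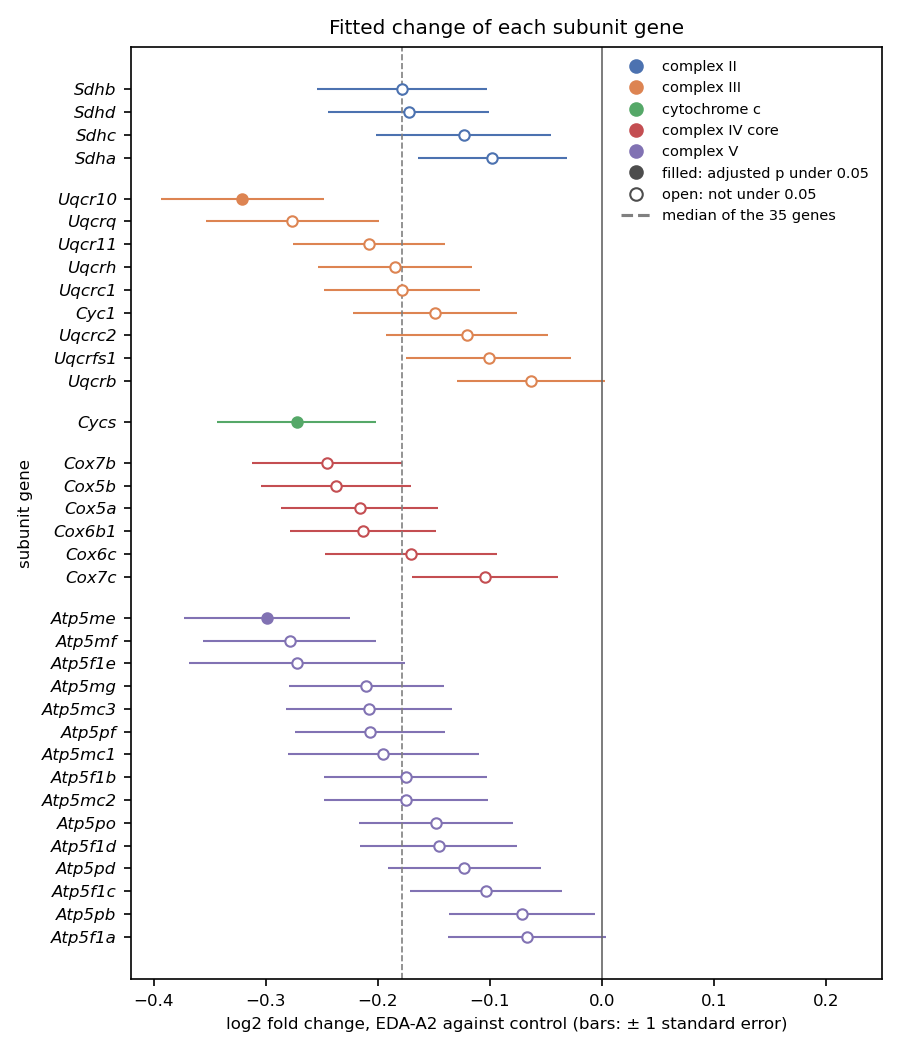
Fitted log2 fold change of each subunit gene in EDA-A2 against control libraries, with bars of ± 1 standard error, coloured by complex; filled points have an adjusted p under 0.05 and the dashed line is the median of the 35 genes, -0.18. All points lie left of 0, and 3 of them are filled (Uqcr10, Cycs and Atp5me).

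The promoters of the called genes, and of the gene with the smallest p in each complex without a call, are shown because the levels of these genes were lower together. Each runs from 180 bases before to 20 bases after the start of the canonical transcript of GENCODE, on the gene's strand in GRCm39. Capitals mark letters that match the motifs of nuclear respiratory factor NRF1 (GCGCANGCG), of ETS factors such as GABP (CCGGAAG), of oestrogen-related receptors (AAGGTCA) and of CREB (TGACGTCA), on either strand.
Uqcr10 (chr11:4654332-4654531, minus strand): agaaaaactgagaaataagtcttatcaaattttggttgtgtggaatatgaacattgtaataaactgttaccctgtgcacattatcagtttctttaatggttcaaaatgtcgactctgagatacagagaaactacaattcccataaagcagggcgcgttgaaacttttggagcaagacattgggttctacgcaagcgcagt
Cycs (chr6:50543538-50543737, minus strand): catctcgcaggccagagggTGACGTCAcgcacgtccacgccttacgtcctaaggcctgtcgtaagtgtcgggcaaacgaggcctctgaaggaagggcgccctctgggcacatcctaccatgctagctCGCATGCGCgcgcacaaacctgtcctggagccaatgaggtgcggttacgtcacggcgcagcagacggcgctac
Cox7b (chrX:105059113-105059312, plus strand): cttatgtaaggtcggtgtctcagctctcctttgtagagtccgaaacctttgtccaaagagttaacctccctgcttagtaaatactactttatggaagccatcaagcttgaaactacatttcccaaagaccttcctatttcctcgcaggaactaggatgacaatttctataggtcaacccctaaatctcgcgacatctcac
Sdhd (chr9:50515105-50515304, minus strand): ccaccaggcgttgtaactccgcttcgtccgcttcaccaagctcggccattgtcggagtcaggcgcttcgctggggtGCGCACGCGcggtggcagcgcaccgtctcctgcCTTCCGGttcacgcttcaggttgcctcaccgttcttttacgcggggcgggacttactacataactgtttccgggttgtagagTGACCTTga
Atp5me (chr5:108582295-108582494, minus strand): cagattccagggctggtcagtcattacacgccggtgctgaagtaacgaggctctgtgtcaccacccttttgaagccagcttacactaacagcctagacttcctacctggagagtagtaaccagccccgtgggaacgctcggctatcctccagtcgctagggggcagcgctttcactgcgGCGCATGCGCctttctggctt

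NRF1 and GABP are known as activators of many respiratory genes. None of the 4 motifs was in all 5 promoters. Sdhd held the NRF1, ETS and oestrogen-related receptor letters, Cycs held the NRF1 and CREB letters, Atp5me held NRF1 letters that read on both strands across its start, and the shown stretches of Uqcr10 and Cox7b held none of the 4. In the window from 250 bases before to 50 after the start, NRF1 letters were found in 9 of the 35 promoters (25.7%) and in 11.9% of the promoters of the 13065 protein-coding genes tested. ETS letters were in 17.1% and 14.9%, oestrogen-related receptor letters in 11.4% and 3.61%, and CREB letters, searched only after the Cycs promoter had been seen, in 8.57% and 3.26%. SP1 letters (GGGCGG) were in 40.0% of the 35 and 58.2% of all, those of NFκB (GGGNNTTCC) in 5.71% and 6.95%, and those of YY1 (AAGATGGCG) in 0 of the 35 and 2.10% of all. The 9 genes with NRF1 letters had a median log2 fold change of -0.18, as did the 26 without them. A match of letters is not a measured binding site.

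Complex II is the only respiratory complex that is also an enzyme of the citrate cycle. None of its 4 genes passed the test, their median log2 fold change was -0.15, and the mean of their summed counts differed by -9.04% in EDA-A2 libraries. Sdhd, which with Sdhc anchors the complex in the membrane, had 6233 and 6769 normalised counts in control and 5529 and 6010 in EDA-A2 libraries. Sdhb, the iron-sulphur subunit, had 4508 and 4520 in control and 3693 and 4284 in EDA-A2 libraries. Neither gene's groups overlapped, and both EDA-A2 libraries lay below both control libraries for 22.2% of all genes tested. The log2 fold change of Sdhd was -0.17 ± 0.07 (SE, n = 2 per group) with an edgeR quasi-likelihood adjusted p of 0.246, and that of Sdhb was -0.18 ± 0.08 with 0.26. Sdha, the flavoprotein that oxidises succinate, had the largest p of the 4, with 9146 and 8742 counts in control, 8197 and 8519 in EDA-A2 libraries and a log2 fold change of -0.10 ± 0.07. Sdhc was the 1 gene of the complex whose groups overlapped, since EDA-A2 replicate 2 (4502) was above control replicate 1 (4399).

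In complex III, Uqcr10 fell. This gene encodes a small membrane-spanning subunit without a redox group. It had 3505 and 3245 normalised counts in control and 2593 and 2811 in EDA-A2 libraries, and the lower control library lay above the higher EDA-A2 library by 13.4% of its own level. Its log2 fold change was -0.32 ± 0.07 (SE, n = 2 per group), a mean level that differed by -20.0%, with an edgeR quasi-likelihood adjusted p of 0.0189. With offsets for transcript length and GC content the change was -0.24 and the adjusted p 0.108, and without EDA-A2 replicate 1 they were -0.26 and 0.294. Uqcrq, another small subunit, had 5504 and 4833 counts in control and 4079 and 4456 in EDA-A2 libraries, with a log2 fold change of -0.28 ± 0.08 (edgeR adjusted p 0.0584). At the other end, Uqcrb, known as a ubiquinone-binding subunit, had 3907 and 3753 counts in control and 3658 and 3673 in EDA-A2 libraries. Its groups did not overlap, yet the log2 fold change was -0.06 ± 0.07.

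Within complex III the 4 larger subunits (the core proteins Uqcrc1 and Uqcrc2, the Rieske iron-sulphur protein Uqcrfs1 and cytochrome c1, Cyc1) had a median log2 fold change of -0.13, with 1 of 4 at an unadjusted p under 0.05. The 5 small subunits (Uqcrb, Uqcrh, Uqcrq, Uqcr10 and Uqcr11) had a median of -0.21, with 4 of 5 at an unadjusted p under 0.05. Of all genes tested, 8.03% were lower at that threshold. Their ranges overlapped, from -0.18 to -0.10 for the larger and from -0.32 to -0.06 for the small subunits, and the difference between them was not tested. Uqcrfs1 overlapped between groups: EDA-A2 replicate 2 had 5868 normalised counts and control replicate 1 had 5855.

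Cycs encodes somatic cytochrome c, the soluble carrier between complexes III and IV, which also activates caspases once released from mitochondria. It had 4886 and 4929 normalised counts in control and 3844 and 4281 in EDA-A2 libraries. The control libraries differed by 0.886% and both lay above the pair treated with EDA-A2. The gene changed by -0.27 ± 0.07 on the log2 scale (SE, n = 2 per group), a mean level that differed by -17.2%, with an edgeR quasi-likelihood adjusted p of 0.0412. With length and GC offsets the change was -0.34 and the adjusted p 0.0156. With 1 EDA-A2 library left out the edgeR adjusted p was above the threshold, at 0.615 without replicate 1 and 0.0621 without replicate 2.

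All 6 genes of complex IV had EDA-A2 libraries below control libraries, as did 22.2% of all genes, and 5 of 6 were lower at an unadjusted p under 0.05, as were 8.03% of all genes. None was called after adjustment. Their median log2 fold change was -0.21 and the mean of their summed counts differed by -12.8%. Cox7b, a small membrane subunit encoded on the X chromosome, had 4813 and 4659 normalised counts in control and 3898 and 4091 in EDA-A2 libraries, with a log2 fold change of -0.25 ± 0.07 (edgeR adjusted p 0.0511). Cox5b, a zinc-binding subunit on the matrix side, had 5684 and 5502 in control and 4617 and 4873 in EDA-A2 libraries, with a log2 fold change of -0.24 ± 0.07 (edgeR adjusted p 0.0601). In both genes the distance between the groups was larger than the distance between the libraries of a group. Cox6b1, on the intermembrane side, and Cox5a had log2 fold changes of -0.21 and -0.22, and Cox6c had -0.17. Cox7c had the largest p of the 6, with 5162 and 5078 counts in control, 4691 and 4833 in EDA-A2 libraries and a log2 fold change of -0.10 ± 0.07.

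Of the 15 genes of complex V, Atp5me fell and the other 14 were lower without passing the test. The median log2 fold change was -0.18, and the mean of the summed counts of the 15 genes differed by -9.40%. Atp5me encodes subunit e, a membrane subunit needed for pairing of ATP synthase into dimers. It had 2442 and 2513 normalised counts in control and 1914 and 2114 in EDA-A2 libraries, again without overlap. It changed by -0.30 ± 0.07 on the log2 scale (SE, n = 2 per group), a mean level that differed by -18.7%, with an edgeR quasi-likelihood adjusted p of 0.0309. With length and GC offsets the change was -0.23 and the adjusted p 0.166, and without EDA-A2 replicate 1 or 2 the adjusted p was 0.502 or 0.0647. Atp5mf, subunit f, had 3716 and 3834 counts in control and 2883 and 3341 in EDA-A2 libraries, with a log2 fold change of -0.28 ± 0.08 (edgeR adjusted p 0.0555). The third of these membrane subunits, Atp5mg (subunit g), had 2775 and 2620 counts in control and 2331 and 2332 in EDA-A2 libraries and a log2 fold change of -0.21 ± 0.07.

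The rotating and static parts of the enzyme are described next. The F1 part, whose head makes ATP, is encoded by Atp5f1a to Atp5f1e, and these 5 genes had a median log2 fold change of -0.15. Atp5f1b, the catalytic beta subunit, was the most abundant of the 35 transcripts by counts, with 47506 and 43747 in control and 39208 and 41616 in EDA-A2 libraries. Atp5f1a, its alpha partner, had 32442 and 32932 in control and 29828 and 32588 in EDA-A2 libraries, so its groups overlapped. The 2 genes, whose products alternate in equal number in the head, had log2 fold changes of -0.18 ± 0.07 and -0.07 ± 0.07, and the difference between the 2 was not tested. Atp5f1e, the small epsilon subunit and the least counted of the 35, had 2227 and 2113 in control and 1577 and 2016 in EDA-A2 libraries, a distance of 27.8% between its EDA-A2 replicates and a log2 fold change of -0.27 ± 0.10. The value for Atp5f1e was -0.11 when EDA-A2 replicate 1 was left out and -0.46 when EDA-A2 replicate 2 was. The 4 genes of the peripheral stalk (Atp5pb, Atp5pd, Atp5pf and Atp5po), which holds the head still, had a median of -0.14. Atp5pf was the lowest of them at -0.21 and Atp5pb the highest at -0.07.

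The ring of c subunits turns as protons pass. Its mature protein comes from 3 genes on different chromosomes, Atp5mc1, Atp5mc2 and Atp5mc3, which differ in the targeting peptide that is cut off after import. The last 225 coding bases of each, before the stop codon, are shown because they decide whether reads can be told apart between the genes. Capitals mark positions at which the 3 genes are not all the same, and the coordinates are those of the whole gene in GRCm39.
Atp5mc1 (chr11:95959678-95966757, minus strand): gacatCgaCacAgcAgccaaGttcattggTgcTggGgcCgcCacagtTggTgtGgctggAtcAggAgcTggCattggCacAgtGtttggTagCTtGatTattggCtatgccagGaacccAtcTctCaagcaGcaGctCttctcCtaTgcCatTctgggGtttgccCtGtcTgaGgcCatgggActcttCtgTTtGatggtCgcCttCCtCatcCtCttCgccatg
Atp5mc2 (chr15:102571295-102580787, minus strand): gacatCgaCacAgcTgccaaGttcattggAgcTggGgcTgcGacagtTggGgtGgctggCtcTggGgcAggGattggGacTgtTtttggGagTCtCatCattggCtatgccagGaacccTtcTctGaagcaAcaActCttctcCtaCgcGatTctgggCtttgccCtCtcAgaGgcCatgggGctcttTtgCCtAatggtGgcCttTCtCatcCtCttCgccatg
Atp5mc3 (chr2:73738779-73741933, minus strand): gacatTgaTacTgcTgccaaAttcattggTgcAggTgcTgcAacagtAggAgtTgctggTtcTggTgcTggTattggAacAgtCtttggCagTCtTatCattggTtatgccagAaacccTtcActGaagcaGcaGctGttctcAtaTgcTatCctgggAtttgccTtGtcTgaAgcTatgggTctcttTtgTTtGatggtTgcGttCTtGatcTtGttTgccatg

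Of these 225 bases, 168 were the same in all 3 genes, and none of the 75 codons differed in the amino acid it encodes. Identity was 84.9% between Atp5mc1 and Atp5mc2, 80.0% between Atp5mc1 and Atp5mc3 and 78.7% between Atp5mc2 and Atp5mc3. The longest run of identical bases between any of the whole transcripts was 21, shorter than the 100 bases of a read. Atp5mc3 had 7137 and 7587 normalised counts in control and 5994 and 6754 in EDA-A2 libraries. Atp5mc1 had 2778 and 2994 in control and 2289 and 2754 in EDA-A2 libraries, and Atp5mc2 had 3383 and 3308 and then 2789 and 3138. The 3 genes were thus lower in both EDA-A2 libraries, as were 22.2% of all genes tested. Their log2 fold changes were -0.21 ± 0.07, -0.19 ± 0.09 and -0.17 ± 0.07, and none passed the test. The mean of their summed counts differed by -12.8%.

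Across the 35 genes the fold change varied with the number of counts. The 4 genes with the most counts (Atp5f1b, Atp5f1a, Atp5f1c and Atp5pb) had log2 fold changes of -0.18, -0.07, -0.10 and -0.07, and the 4 with the fewest (Atp5f1e, Atp5me, Atp5mg and Atp5mc1) had -0.27, -0.30, -0.21 and -0.19. As a description across genes that share the same 4 libraries, the fold change correlated with the control count at Pearson r = 0.503 and Spearman rho = 0.548 (n = 35 genes, which are not independent replicates). With the length of the canonical transcript r was 0.381 and rho 0.369, and with its GC content r was -0.152 and rho -0.21. Counts rise with transcript length as well as with abundance. Per length, in TPM, the coefficients were near 0 (r = 0.0713, rho = -0.00784), though canonical transcripts often carry the longest 3′ end and such levels are uncertain. The 13 genes with transcripts under 1000 bases had a median log2 fold change of -0.21 and the 22 longer ones -0.16. In all 13065 protein-coding genes tested, the 1308 shortest (108 to 1427 bases) had a median of -0.04. Over the 13065 genes the fold change correlated with GC content at r = -0.125 and rho = -0.205. With transcript length the values were r = 0.0406 and rho = 0.0652.

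**Figure D3:**
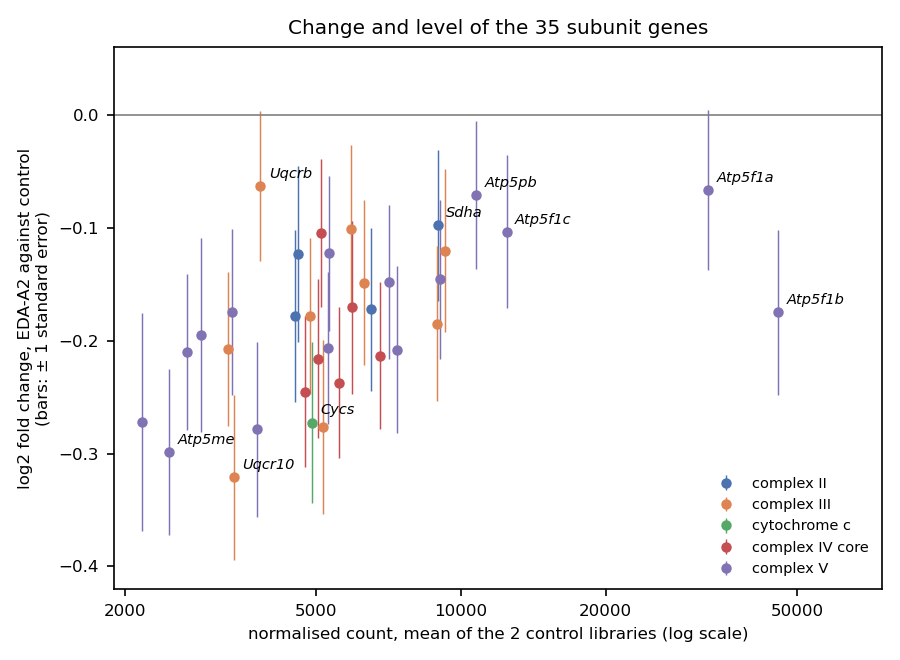
Log2 fold change of each of the 35 subunit genes (bars, ± 1 standard error) against its mean normalised count in the 2 control libraries on a log axis, coloured by complex. Genes with fewer counts, such as Atp5me and Uqcr10, lie lower than genes with more counts, such as Atp5f1a and Atp5pb, with Uqcrb as an exception at 3830 counts.

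Beyond the 35 genes, other nuclear subunits of the respiratory chain also had lower levels. All 37 genes of complex I nuclear subunits tested were lower (median -0.15 on the log2 scale). Ndufa13 (-0.28 ± 0.07) and Ndufb10 (-0.26 ± 0.07) fell (edgeR quasi-likelihood adjusted p 0.0224 and 0.0461), as did 2.13% of all genes tested. Both calls were lost in each of the 4 fits that left out a library, and with total counts, without the low-count filter or with length and GC offsets (adjusted p 0.0655, 0.149 and 0.0721 for Ndufa13, and 0.137, 0.219 and 0.155 for Ndufb10). That of Ndufb10 was also lost with upper quartile factors (edgeR adjusted p 0.0527) and with the DESeq2 Wald test (0.0682). It was lost too with length and GC offsets and the replicate number as a term (edgeR adjusted p 0.0507). All 10 complex IV isoform genes tested were lower with a median of -0.23, and the muscle isoforms Cox6a2 (-0.41 ± 0.07, adjusted p 0.00349) and Cox8b (-0.38 ± 0.10, adjusted p 0.0399) fell by the same edgeR test. The call of Cox8b was lost without EDA-A2 replicate 1 (-0.23), with total counts (edgeR adjusted p 0.096) and without the low-count filter (0.363). That of Cox6a2 was lost without the filter (0.121). Both were also lost without control replicate 1 or control replicate 2, as were all calls of the table. Without EDA-A2 replicate 1 or 2 the median of the 10 genes was -0.13 or -0.34. Of 3 further complex V genes none passed the test. The log2 fold change was -0.20 ± 0.09 for Atp5mk, -0.16 ± 0.10 for Atp5mj and -0.05 ± 0.07 for Atp5if1, the inhibitor of ATP hydrolysis.

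Among the genes that build these complexes the signs were mixed. Assembly factors, which insert cofactors and join subunits, were lower for 26 and higher for 16 of the 42 tested, with a median of -0.02 and 0 calls by edgeR (3 lower and 2 higher at an unadjusted p under 0.05, and 0 calls by DESeq2). Uqcc3, for complex III, had 399 and 412 normalised counts in control and 316 and 316 in EDA-A2 libraries, a log2 fold change of -0.36 ± 0.11. Sdhaf1, for the iron-sulphur clusters of complex II, had 356 and 383 in control and 497 and 447 in EDA-A2 libraries, a log2 fold change of 0.35 ± 0.11. The median standard error of the list was 0.10. Of the transcripts from mitochondrial DNA, mt-Cytb of complex III had 76891 and 74109 counts in control and 75417 and 76475 in EDA-A2 libraries, and mt-Co1 of complex IV had 248022 and 250305 and then 231847 and 252405. Both overlapped between groups, with log2 fold changes of 0.01 ± 0.07 and -0.04 ± 0.08. The tables held at most 39 normalised counts in a library for mt-Co2 and 21 for mt-Co3, whose log2 fold changes were 0.04 ± 0.34 and -0.14 ± 0.39, and mt-Atp6 and mt-Atp8 did not pass the filter. Whether the counting removed reads of these 4 mitochondrial genes was not tested, so the counts of this list need not follow the abundance of the transcripts.

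**Figure D4:**
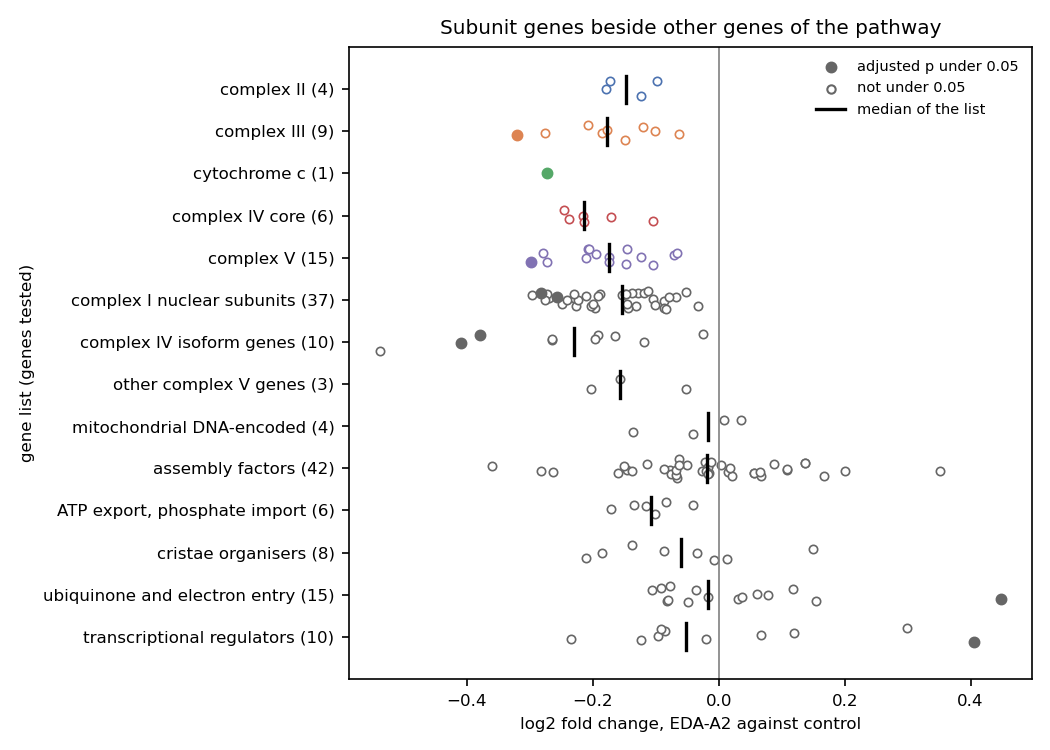
Log2 fold change of each tested gene in EDA-A2 against control libraries (points; filled where the adjusted p was under 0.05), by complex for the 35 subunit genes and then for the other lists of the pathway, with the number of genes tested in brackets and a black bar at the median. The subunit rows lie wholly left of 0, whereas the 42 assembly factors are centred at -0.02 and Tfam (0.41) and Coq8a (0.45) are the filled points right of 0.

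Among 10 transcriptional regulators of respiratory genes, Tfam rose and none fell, where 2.45% of all genes tested rose and 2.13% fell. Tfam encodes the factor that packages and transcribes mitochondrial DNA. It had 1379 and 1413 normalised counts in control and 1809 and 1887 in EDA-A2 libraries, a log2 fold change of 0.41 ± 0.07. The edgeR quasi-likelihood adjusted p was 0.00412 and became 0.0772 without EDA-A2 replicate 2. Gabpb1, a subunit of GABP, had a log2 fold change of 0.30 ± 0.09 (edgeR adjusted p 0.0816). Of 15 genes of ubiquinone synthesis and other electron entry, Coq8a rose from 4052 and 4360 counts to 5488 and 5990 (0.45 ± 0.07, edgeR adjusted p 0.0016), and the median of the 15 was -0.02. Without the low-count filter both calls were lost (edgeR adjusted p 0.0978 for Tfam and 0.0985 for Coq8a). They were also lost without control replicate 1 or control replicate 2, as were all calls of the table. Carriers and channels for ATP export and phosphate import (6 genes) were all lower with a median of -0.11, and 8 organisers of the cristae had a median of -0.06. With total counts these medians were -0.05 and -0.006, and leaving out a library gave -0.18 to -0.04 and -0.12 to -0.02, the ends without EDA-A2 replicates 2 and 1. Neither list had a call by edgeR, and 1 and 2 of their genes, Slc25a5 (-0.17 ± 0.07) and Micos13 (-0.21 ± 0.08) with Micos10 (-0.19 ± 0.07), were lower at an unadjusted p under 0.05.

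Near-identical copies and overlapping genes touch these counts. Near-identical copies of 10 of the 35 genes are annotated and listed in the tables, and they held at most 1.34% of the counts of their parent gene (Atp5mc1). Adding the copies changed no call among the 35. Pairs that mapped to both a gene and a copy were not unique and were counted for neither. These values therefore cannot show how many counts the parent genes lost. Several genes also overlap a gene on the opposite strand, over 41.4% of the exon bases of Cox5a, 27.0% of Uqcrc2, 23.8% of Atp5pf (with Gabpa), 23.3% of Uqcr11, 23.1% of Atp5f1b and 18% of Uqcr10. The libraries were stranded, but the strand setting of the counting is not given in the sources used here, so the counts of these genes are uncertain to that extent.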

How the data were processed

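Polyadenylated RNA of primary myotubes was read as 100-base pairs from stranded libraries. According to the labels, submitters' notes and the study's methods, the authors trimmed reads with Trim Galore 0.6.5, mapped them to GRCm39 with STAR 2.7.3a and counted pairs per gene with HTSeq 0.11.1; quality was read with FastQC 0.11.9 and MultiQC 1.12. The deposited values are raw counts per Ensembl gene, unnormalised, 1 table per library. Pairs outside genes (6.68% to 7.40%), ambiguous (0.946% to 0.986%) or not uniquely mapped (4.56% to 4.76%) stayed out of library sizes and tests.

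Counts were tested with edgeR 4.0.16 in R 4.3.3 (TMM, filterByExpr at 10 counts and a total of 15, quasi-likelihood test, treatment as the only term, Benjamini-Hochberg over 15173 genes, threshold 0.05). Normalised counts are TMM-scaled. Standard errors equal the log2 fold change over the root of F. The steps were tested on simulated counts. Symbols, lengths and sequences came from GENCODE vM39 (GRCm39), which matched 52610 of the 53647 genes. Copies were found by blastn 2.17.0 (90% identity or more over 50% or more of the transcript). Alternatives were other scalings (DESeq2 1.42.0 size factors, upper quartile, total counts), other filters, the DESeq2 Wald test, a replicate block, length and GC offsets (loess, span 0.3), protein-coding genes only, added copies, and leaving out each library.

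The 35 genes and the other lists were chosen with earlier results of these data known. Members described with library values were those called and, in each complex, the 2 with the smallest and the 1 with the largest p, together with all 3 c-subunit genes, genes with overlapping groups, Atp5f1b, Atp5f1e and Atp5mg, chosen after their values were seen. Of other lists, the called genes and up to 2 with the smallest p were named, with Atp5if1 and the other mitochondrial genes added after their values were seen. Promoters were printed for called members and the smallest p in each complex. Coding sequence was printed for the c-subunit genes in place of the protein planned.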

Additional observations from a re-analysis of the deposited data

How the results depend on the processing

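All 35 subunit genes kept a negative log2 fold change in each of the 11 other settings and the 4 fits without a library. The count of genes with EDA-A2 libraries below control libraries stayed within 1.5 times of 32 where it could be recomputed. That bound is wide, since several genes could change within it. The 3 calls among the 35 genes became 0 with library sizes from total counts (13 with an unadjusted p under 0.05) and 0 without the filter (17), 9 with the replicate block, and 10 with length and GC offsets and the block. In the fits without a library these calls were lost or fell in part on other genes of the 35. Over all genes, the 371 higher calls became 64 without the filter and 579 with offsets and block, and 0 to 238 without a library. The 323 lower calls became 194 with total counts, 22 without the filter, 529 with the block and 740 with offsets and block, and 0 to 170 without a library. Without control replicate 1 edgeR called 0 genes of the table (1062 higher and 1117 lower at an unadjusted p under 0.05), and without control replicate 2 also 0 (1245 and 1204). In these fits the lone library is assumed to vary like the other group. Without the filter 25545 genes were tested. The cause of these shifts was not tested.

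The median of the 35 genes ran from -0.25 to -0.11 without a library. That of complex II ran from -0.23 to -0.072, that of complex III from -0.25 to -0.11, that of complex IV from -0.28 to -0.17 and that of complex V from -0.22 to -0.11. With total counts that of complex IV was -0.16, a scaling that moved the median of all genes to 0.05. The median of the transcriptional regulators (-0.05) became 0.0027 with total counts and ran from -0.047 to 0.0386 without a library. The medians of the ubiquinone list and of the assembly factors (both -0.02) became 0.04 with total counts. The log2 fold change of mt-Co1 became 0.0132 with total counts and ran from -0.11 to 0.0195 without a library, that of Atp5mj from -0.376 to 0.0332, and that of mt-Co3 from -0.319 to 0.0498. Tfam, Coq8a and the called markers kept their direction in each setting run.

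The 2 groups share only replicate numbers. The deviations of same-numbered libraries correlated at 0.119 over 12345 genes, and with 2 pairs this does not pair them, so the block was kept as an alternative.

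With 2 libraries per group, 12 of the 35 differences were not detected at an unadjusted p under 0.05. Those of Sdha, Uqcrb, Cox7c, Atp5pb and Atp5f1a were among them. No limit of detection was computed.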
